A study of Mus musculus with 10 samples.

Results

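The Foxo and Gadd45 genes were examined for REST occupancy in the mouse cortex. The set is a fixed list of 6 genes, Foxo1, Foxo3, Foxo6, Gadd45a, Gadd45b and Gadd45g, out of 26089 genes with a curated RefSeq transcript outside chromosome Y. A peak was assigned to a gene if it overlapped the gene body or lay within 5 kb of its transcription start site. Chromatin from bulk cortex of 11-month-old female mice was immunoprecipitated with an antibody to the C-terminus of REST and sequenced (ChIP-seq). Littermate wild-type (WT) mice were compared with 3xTg mice, an Alzheimer's disease model. The 3xTg line combines human transgenes for APPSwe and for tau P301L with a mutant PS1 allele that was knocked in. Each genotype had 4 biological replicates made from pools of 4 cortices, together with 1 input library. The deposited data are 1 combined peak list per genotype. No peak therefore has a value per replicate, and no test between the genotypes could be made from the lists. The study's own differential binding analysis named Foxo3 and Gadd45a among the genes with higher REST occupancy in 3xTg. It reported no peak with significantly lower occupancy.

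REST is a zinc-finger repressor that binds the RE1 element and keeps neuronal genes silent outside neurons, and it also acts in ageing neurons. FOXO proteins are forkhead transcription factors that AKT phosphorylates and excludes from the nucleus when insulin signaling is high. When they are nuclear they activate genes of stress resistance, cell cycle arrest and apoptosis. GADD45 proteins are small stress-induced proteins that bind cell cycle and repair proteins and the upstream kinase of the stress-activated MAP kinases. Gadd45a is a known target of both p53 and FOXO factors, and Gadd45b is induced by neuronal activity and takes part in DNA demethylation.

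The WT list held 3006 peaks and the 3xTg list 5077, after 4 and 9 peaks on chromosome Y were left out. Fold enrichment, the ChIP signal at the summit over the local background, ran from 6.003 to 68.6 (median 7.28) in WT and from 8.50 to 69.0 (median 10.8) in 3xTg. The lists therefore ended at different values, and a place with no listed peak may still have had signal below the end of its list. Read depth is not held in the lists, so no counting interval can be given. In bulk cortex, occupancy in more cells and stronger occupancy in each cell cannot be told apart, and peaks carry no expression by which the tissue label could be checked against its markers.

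REST peaks lay at the start sites of all 3 Gadd45 genes in 3xTg, and of the 3 Foxo genes at Foxo3 alone. In 3xTg 4 of the 6 genes had a peak (Foxo3, Gadd45a, Gadd45b and Gadd45g), where 14.2% of all genes did. In WT 3 of the 6 had one (Foxo3, Gadd45b and Gadd45g), where 9.30% of all genes did. The same 3 genes had a peak in both lists, as did 7.78% of all genes, and Gadd45a had one in 3xTg and not in WT, as did 6.42% of all genes. Foxo1 and Foxo6 had none in either list.

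**Figure D1:**
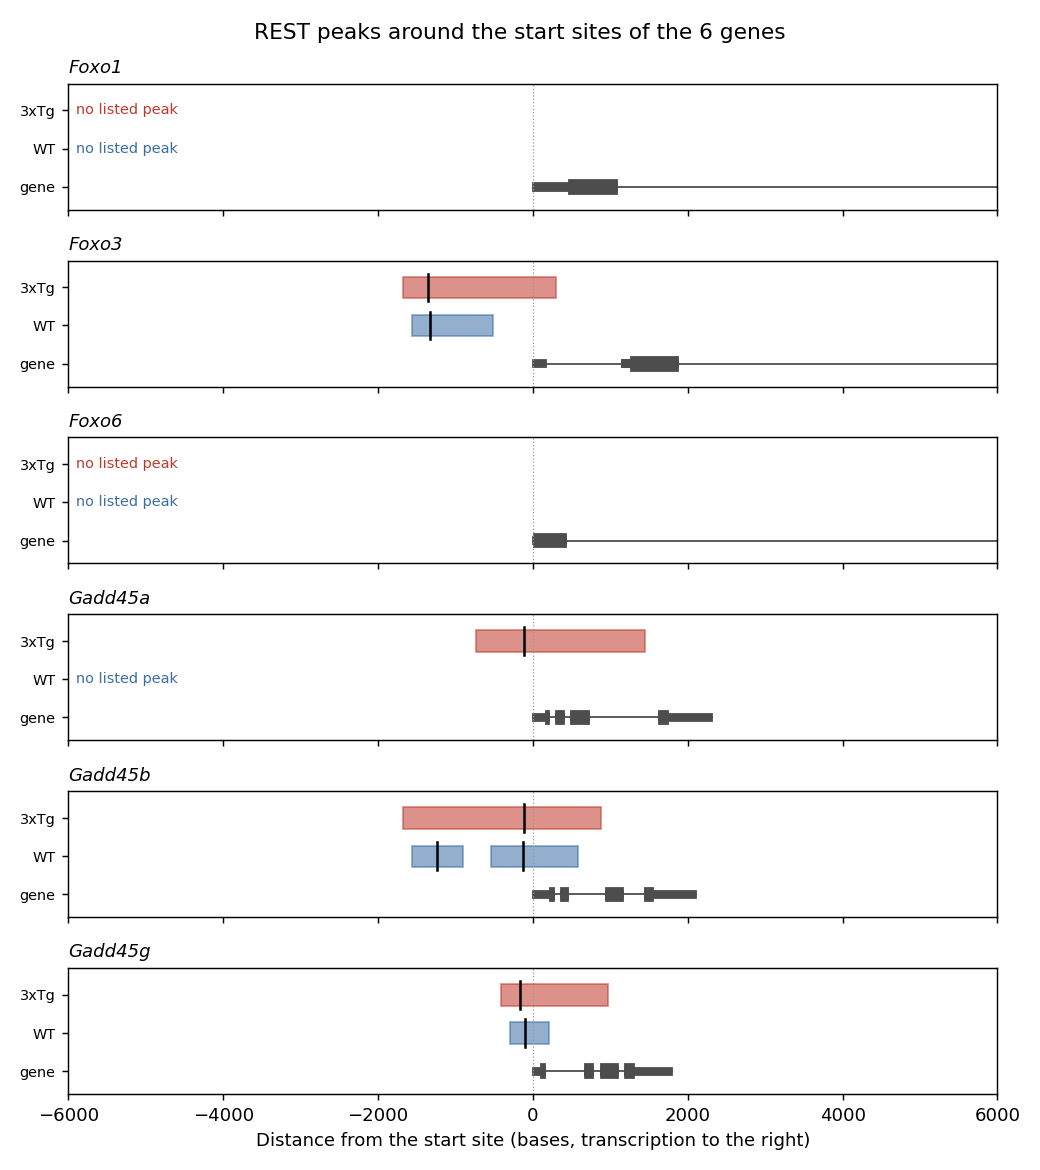
REST peaks around the start sites of the 6 genes, plotted by distance from the start site in bases with transcription to the right. Colored bars are the deposited WT (blue) and 3xTg (red) peaks, black ticks their summits, thick gray boxes coding exon parts, thin boxes untranslated exon parts and lines introns. The 3 Gadd45 genes have 3xTg summits between 116 and 166 bases upstream of the start, while both Foxo3 summits lie 1330 and 1356 bases upstream.

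The sequence under each summit is shown because it is the DNA at which REST signal was highest at these genes. Each window is 201 bases of mm10 centered on the 3xTg summit and is written 5′ to 3′ on the strand of its gene. Capitals mark every match, on either strand, to any of the promoter elements named next. The GC box was searched as GGGCGG, the box bound by NF-Y as CCAAT and the TATA box as TATAAA. The cyclic AMP response element was searched as TGACGTCA, the octamer as ATTTGCAT and the E-box as CACGTG. No match overlapped another. The octamer and the E-box were added after the sequences had been seen. The Gadd45b window is chr10:80929875-80930075 (plus strand), the Gadd45g window chr13:51846409-51846609 (plus strand), the Gadd45a window chr6:67037427-67037627 (minus strand) and the Foxo3 window chr10:42277951-42278151 (minus strand). All of them lie wholly upstream of the start site of their gene.
Gadd45b: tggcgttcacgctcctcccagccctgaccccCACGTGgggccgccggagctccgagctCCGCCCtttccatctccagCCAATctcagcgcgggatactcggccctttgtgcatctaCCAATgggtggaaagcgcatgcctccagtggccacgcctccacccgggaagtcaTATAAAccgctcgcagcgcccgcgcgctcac
Gadd45g: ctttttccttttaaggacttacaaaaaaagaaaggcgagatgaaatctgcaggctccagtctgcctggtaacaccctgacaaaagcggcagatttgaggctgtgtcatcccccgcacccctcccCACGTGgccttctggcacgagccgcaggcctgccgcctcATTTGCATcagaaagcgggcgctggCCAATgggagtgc
Gadd45a: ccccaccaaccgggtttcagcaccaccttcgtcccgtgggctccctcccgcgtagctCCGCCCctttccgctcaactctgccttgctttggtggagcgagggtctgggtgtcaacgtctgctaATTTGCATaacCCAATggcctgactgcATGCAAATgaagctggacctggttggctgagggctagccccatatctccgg
Foxo3: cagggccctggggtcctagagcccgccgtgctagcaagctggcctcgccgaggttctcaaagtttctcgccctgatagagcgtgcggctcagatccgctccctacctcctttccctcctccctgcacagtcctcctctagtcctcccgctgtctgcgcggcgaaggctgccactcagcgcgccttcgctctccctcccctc

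Gadd45b had the strongest REST signal of the family. The gene lies on the plus strand at chr10:80930091-80932204 and has 4 exons. Its main WT peak (chr10:80929555-80930673) had a fold enrichment of 30.5 and was number 39 of 3006. The 3xTg peak (chr10:80928410-80930971) had a fold enrichment of 45.0 and was number 43 of 5077. Both summits were in the proximal promoter, 132 bases upstream of the start in WT and 116 in 3xTg, and both peaks ran through the start site into exons 1 and 2. The peak was thus near the top of each list. Among the peaks within 1 kb of any start site it was number 14 of 1153 in WT and number 14 of 1712 in 3xTg.

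A second WT peak was listed at Gadd45b. It spanned chr10:80928531-80929193, had a fold enrichment of 6.05 and was number 2791, close to the end of the list, with its summit 1245 bases upstream of the start. It was separated from the main WT peak by 361 bases. The 3xTg peak, 2562 bases wide, overlapped both WT peaks, and 2.84% of the 3xTg peaks were wider. The listed region was therefore single in 3xTg and split in WT, while the main summits of the genotypes lay 16 bases apart.

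Gadd45g, at chr13:51846675-51848475 on the plus strand, had a moderate peak over its start site in both genotypes. In WT it spanned chr13:51846385-51846880 (496 bases), had a fold enrichment of 10.2 and was number 550. In 3xTg it spanned chr13:51846261-51847645 (1385 bases), had a fold enrichment of 14.8 and was number 1077. The summits were 96 and 166 bases upstream of the start. The WT peak touched exon 1 of 4, while the 3xTg peak reached exon 3. Among start-site peaks Gadd45g was number 187 of 1153 in WT and number 342 of 1712 in 3xTg.

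Gadd45a had a peak in 3xTg without a WT peak. The gene lies on the minus strand of chromosome 6 (67035096 to 67037407). Its 3xTg peak was 2186 bases wide, ran from 731 bases upstream of the start to 1454 bases downstream and touched 3 of the 4 exons. The summit was 120 bases upstream of the start, as close as those of Gadd45b and Gadd45g. With a fold enrichment of 15.0 it was number 1043 of 5077, next to Gadd45g at 14.8. The nearest WT peak was 64953 bases from the gene and had a fold enrichment of 7.19. The 3xTg peak also covered the start of the noncoding RNA gene E230016M11Rik, which is transcribed on the opposite strand from 808 bases inside Gadd45a. The summit was 928 bases from that start and 120 bases from that of Gadd45a.

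**Figure D2:**
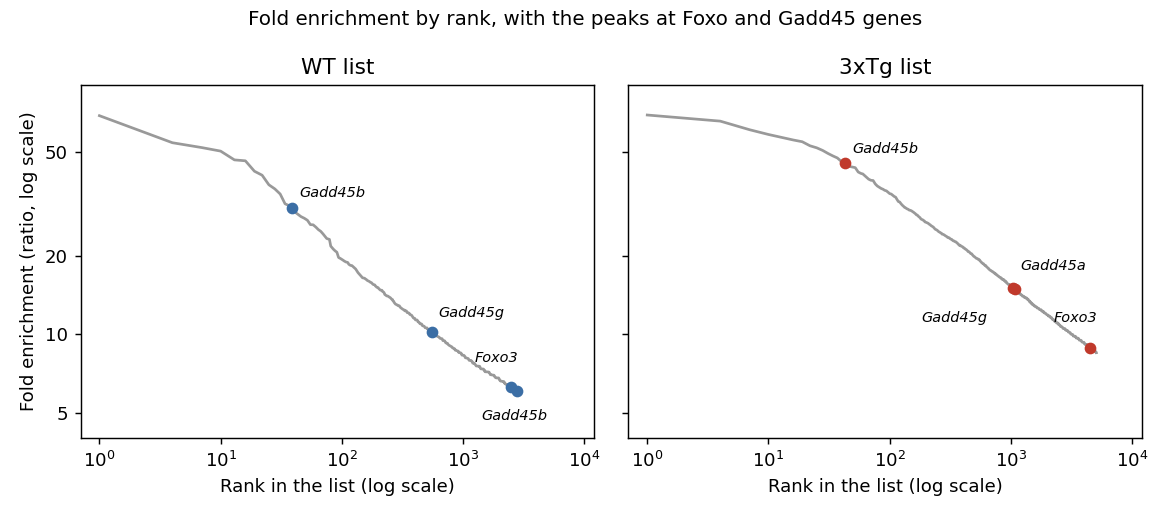
Fold enrichment of the peaks of each list against rank, both on log scales. Gray lines are all peaks outside chromosome Y and points the peaks at the Foxo and Gadd45 genes. Gadd45b is at rank 39 in WT and 43 in 3xTg, Gadd45a and Gadd45g are nearly superimposed in 3xTg at ranks 1043 and 1077, and Foxo3 is close to the end of each list.

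How often a 3xTg peak of a given strength lacked a WT peak was read from its neighbors in rank. Among the 201 3xTg peaks from 100 ranks above Gadd45a to 100 below, 177 (88.1%) overlapped a WT peak and 24, Gadd45a included, did not. For Gadd45g the number was 178 of 201 (88.6%), for Gadd45b 143 of 143 and for Foxo3 40 of 201 (19.9%). Over the whole lists 49% of the 3xTg peaks and 83.3% of the WT peaks overlapped a peak of the other list by at least 1 base. All 4 WT peaks at the family and 3 of its 4 3xTg peaks did. Gadd45a was number 42 in fold enrichment among the 2588 3xTg peaks without a WT peak, and number 9 among the 817 of them within 1 kb of a start site. It was thus among the stronger peaks listed in 3xTg alone, while Foxo3 was shared at a rank where most 3xTg peaks were not.

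**Figure D3:**
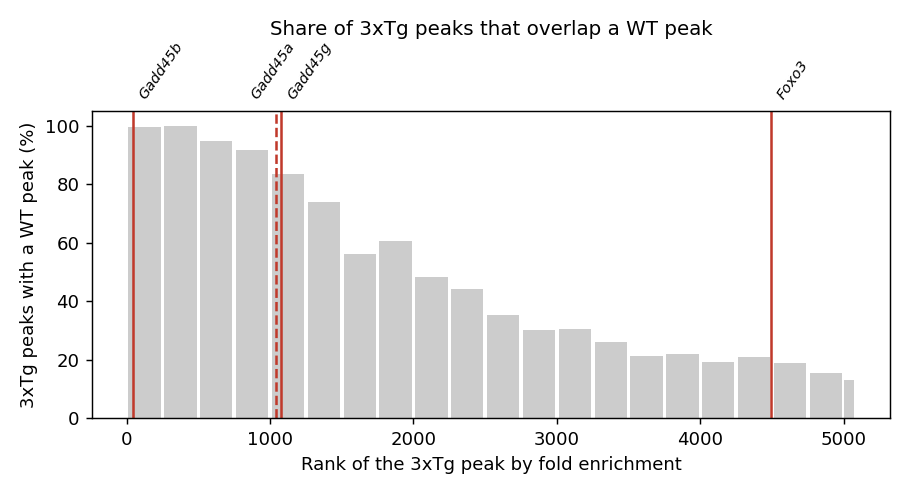
Percentage of 3xTg peaks that overlapped a WT peak, in bins of 250 ranks by fold enrichment (gray bars, the last bin smaller). Vertical lines mark the 3xTg peaks of the Gadd45 and Foxo genes, solid where a WT peak overlapped and dashed for Gadd45a, where none did. The share falls from nearly all of the strongest peaks to few of the weakest, with Gadd45a at rank 1043 and Foxo3 at rank 4494.

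Foxo3, a FOXO gene linked to neuronal apoptosis and longevity, had a weak peak in both genotypes. The gene spans 94.9 kb on the minus strand (chr10:42181845-42276695). In WT the peak (chr10:42277214-42278254) had a fold enrichment of 6.26 and was number 2478 of 3006. In 3xTg it spanned chr10:42276403-42278379, had a fold enrichment of 8.90 and was number 4494 of 5077. These values are near the end of each list, at 6.003 and 8.50. The summits lay 1330 and 1356 bases upstream of the start, 26 bases apart and farther out than those of the Gadd45 genes. The WT peak ended 519 bases before the start, while the 3xTg peak crossed it and reached 292 bases into the gene, over the noncoding first exon. No other gene had a start site nearer to any of the peaks described.

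Foxo1, the main FOXO gene of insulin-responsive tissues, had no listed peak in its 81.8 kb (chr3:52268337-52350109, plus strand) or within 5 kb of its start. The nearest peaks were 633 kb away in both lists, with a fold enrichment of 7.94 in WT and 21.9 in 3xTg. Foxo6, which is expressed mainly in brain, likewise had none in its 20.2 kb (chr4:120267078-120287261, minus strand), and the nearest were 230 kb away, at 6.16 in WT and 14.2 in 3xTg. Foxo4, the FOXO gene outside the set (chrX:101254528-101260873, plus strand), had none either, and the nearest were 31753 bases away in WT and 378611 in 3xTg. In Foxo1, Foxo3 and Foxo6 no peak summit lay in a gene body beyond 5 kb of the start. Over all genes such body regions held 0.104 summits per 100 kb in WT and 0.205 in 3xTg.

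At the genes with a peak in both lists the listed fold enrichment was higher in 3xTg. The ratio of 3xTg to WT was 1.48 at Gadd45b, 1.45 at Gadd45g and 1.42 at Foxo3. Over all 2489 shared 3xTg peaks, each set against the strongest WT peak it overlapped, the median ratio was 1.70, the middle 50% ran from 1.49 to 1.94, and 99.5% were over 1. For 62.1% of these pairs, Foxo3 included, the WT value was below 8.50, where the 3xTg list begins, so that a ratio over 1 was fixed by the ends of the lists. Among the other 944 pairs, which include Gadd45b and Gadd45g, the median ratio was 1.71 and 98.7% were over 1. The family was thus below the median of all shared peaks, with 23.2%, 20.6% and 17.2% of pairs lower than Gadd45b, Gadd45g and Foxo3. The ratio varied with strength, so each gene was also set beside the pairs nearest to it in WT fold enrichment, up to 50 on each side, an addition made after the plot had been seen. The median ratio of these was 1.47 around Gadd45b, 1.76 around Gadd45g and 1.52 around Foxo3. Gadd45b was therefore at the level of the other strong peaks, while Gadd45g and Foxo3 were lower than 80.2% and 85.1% of their neighbors. For Foxo3 the end of the 3xTg list allows no ratio under 1.36.

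**Figure D4:**
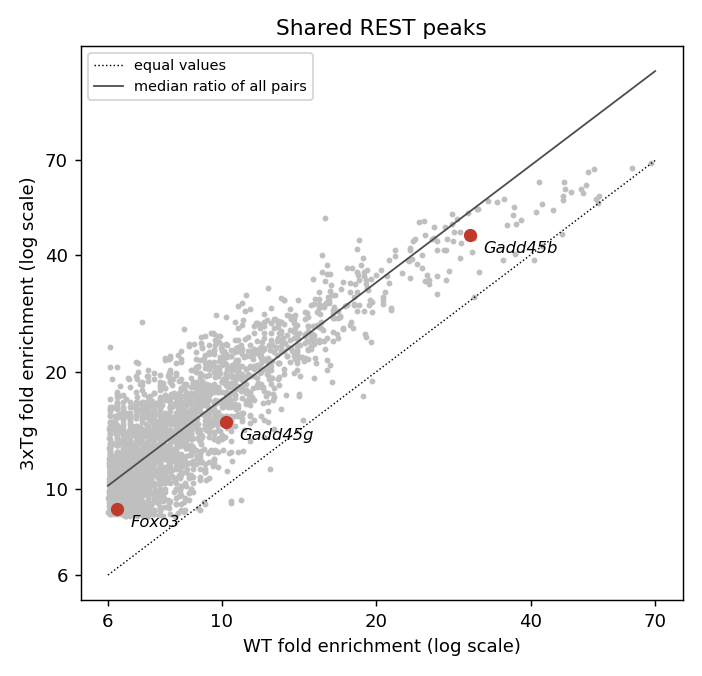
Fold enrichment in 3xTg against WT for all 2489 shared 3xTg peaks (gray) and for Gadd45b, Gadd45g and Foxo3 (red), on log scales. The dotted line marks equal values and the solid line the median ratio of 1.70. The 3 genes lie above the line of equal values and below the median ratio.

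No exact RE1 was found at the summits of the family. The search was for CAGCACC, any 2 bases and GGACAG, on both strands, with at most 2 mismatches in the 13 fixed bases. In windows of 201 bases around the summit, such a match was present in 1 of the 4 WT peaks at these genes, where 6.05% of all WT peaks had one, and in 0 of the 4 3xTg peaks, where 4.27% of all 3xTg peaks had one. The match was in the main WT peak of Gadd45b, at chr10:80929862-80929876 on the minus strand, 222 bases upstream of the start and 90 bases from the WT summit. It had 2 mismatches, and its sequence is shown with the fixed bases that matched in capitals.
Gadd45b RE1-like match: CAGCAgCggcGACAG
It also lay inside the 3xTg peak, but the window around the 3xTg summit began at 80929875 and cut it off. The best match near the 3xTg summit had 4 mismatches at Foxo3, 5 at Gadd45a and Gadd45b and 6 at Gadd45g, and 42.6% of all 3xTg windows had 4 or fewer.

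Outside the peaks, the closest RE1-like sequence within 5 kb of a start of these genes was at Gadd45g. It had 1 mismatch, lay at chr13:51843452-51843466 on the minus strand, 3216 bases upstream of the start, and was in no listed peak of either genotype.
Gadd45g RE1-like match: CAGCcCCtgGGACAG
A match with 1 mismatch or none lay within 5 kb of a start in 4.70% of all genes. With up to 2 mismatches, the body and the 5 kb around the start held 9 matches at Foxo3 and 0 at Gadd45a. Foxo1, Foxo6, Gadd45b and Gadd45g held 2 each. The stretch searched was 99851 bases at Foxo3, 86773 at Foxo1, 25184 at Foxo6 and 10001 at each Gadd45 gene. Within 5 kb of a start, 38.5% of all genes had a match with at most 2 mismatches. The 9 at Foxo3 lay between 21740 and 92095 bases downstream of the start, far from its peak. Of these matches the one in the Gadd45b promoter was in a peak and the others were not.

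The summit windows of the Gadd45 genes, which lie nearer to the start, held promoter elements that the Foxo3 window did not. The CCAAT element was present in all 3, with 2 copies at Gadd45b, and 28.1% of the 3xTg windows held one. Many of those windows are not at promoters, and 37.4% of all RefSeq promoters, which are longer at 250 bases before the start and 50 after, held one too. A GC box was present at Gadd45a and Gadd45b, beside 16.9% of windows and 35.7% of promoters. The RefSeq promoters of Foxo1 and Foxo3 held a GC box too. That of Foxo1, which had no peak, also held a CCAAT element. Of the 4 summit windows that of Gadd45b alone held a TATA box, found in 9.63% of windows and 13.6% of promoters. The RefSeq promoter of Gadd45g, whose summit window ends farther upstream of the start, held a TATA box too. The octamer occurred in 2 copies at Gadd45a and 1 at Gadd45g and in 2.15% of all windows and 1.74% of promoters. The E-box occurred at Gadd45b and Gadd45g and in 3.51% of windows and 7.15% of promoters. The cyclic AMP response element (0.788% of windows) and the FOXO-binding sequence GTAAACA (3.86%) were in none of the 4. Gadd45a held an exact copy of the left part of the RE1, CAGCACC, as did 7.84% of windows and 7.14% of promoters.

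The windows were rich in G and C. GC content was 66.2% at Gadd45b and Foxo3, 60.2% at Gadd45a and 56.2% at Gadd45g, against a median of 47.3% over the 3xTg peaks, and 93.2%, 93.2%, 85.1% and 77.7% of peaks were lower. They held 19, 15, 10 and 9 CpG dinucleotides, against a median of 3. RefSeq promoter sequence (mm10, from 250 bases before to 50 after the start) was matched for 5 of the 6 genes. Foxo1, which had no peak, had 31 CpG in this stretch and a GC content of 61.3%, similar to the 61%, 62% and 62.3% of Gadd45a, Gadd45b and Gadd45g. Foxo3 had 35 CpG and 75%. A GC-rich promoter was thus also present at a family gene without a peak, and the median of all 32851 promoters was 52.7% with 7 CpG.

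Genes that act with FOXO and GADD45 proteins were then counted by role from a list of 78. In WT 17 had a peak and in 3xTg 23, that is 21.8% and 29.5%, beside 9.30% and 14.2% of all genes. All 17 had a peak in both lists, and 55 had none. The list was compiled from known roles with earlier results of these data in view and includes long genes, some with peaks far from their start. With as many 3xTg as WT peaks, the strongest by fold enrichment, the number was 17 in both genotypes. With start sites alone, without gene bodies, the numbers were 13 and 17, beside 6.72% and 9.87% of all genes.

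Of 14 genes of insulin and PI3K-AKT signaling to FOXO, 3 had a peak in WT and 6 in 3xTg. These are 21.4% and 42.9%, beside 9.30% and 14.2% of all genes. The peak at Sgk1, a kinase that phosphorylates FOXO3, had a fold enrichment of 7.52 in WT and 10.7 in 3xTg. At Pdpk1, the kinase that activates AKT, the values were 6.997 and 12.8, but the peak was 67712 bases from its start in WT and nearer to the start of Kctd5. No peak was listed at the insulin receptor gene Insr or at Irs1, Irs2 and Akt1.

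Of 19 other regulators of FOXO, 5 had a peak in WT and 7 in 3xTg. These are 26.3% and 36.8%, beside 9.30% and 14.2% of all genes. The strongest was at Ep300, which encodes an acetyltransferase of FOXO proteins, with 21.0 in WT (number 87) and 35.2 in 3xTg (number 96). It lay 4537 bases from the Ep300 start in WT and 4389 in 3xTg. A peak inside Mapk10, the JNK gene of neurons, had 14.5 and 21.7 and was 49503 bases from its start in WT. One at Ywhaz, an adaptor that retains phosphorylated FOXO in the cytoplasm, had 9.83 and 19.8 and was 13161 bases from the start in WT. The deacetylase gene Sirt1 had no listed peak.

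Of 23 FOXO target genes, 5 had a peak in WT and 6 in 3xTg, all of them within 5 kb of a start site. These are 21.7% and 26.1%, beside 9.30% and 14.2% of all genes. Sesn3, a sestrin of the oxidative stress response, had 21.2 in WT (number 85) and 33.8 in 3xTg (number 107) over its start. Cited2, a transcriptional coregulator, had 6.78 and 16.4, and Pink1, the kinase of mitochondrial quality control, 6.81 and 13.1. Txnip, an inhibitor of thioredoxin, had 7.94 and 10.4, and Sesn1 7.37 and 11.6. The Sesn1 peak in WT lay 401 bases from its start, with a summit nearer to the start of Cep57l1. The proapoptotic targets Bcl2l11, Bbc3, Fasl and Bnip3 and the cell cycle inhibitors Cdkn1a and Cdkn1b had none.

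Of 22 GADD45 partners and regulators, the same 4 had a peak in WT and in 3xTg. That is 18.2% in both lists, beside 9.30% and 14.2% of all genes. The peak at Brca1, a DNA repair gene, had 9.73 in WT (number 635) and 27.9 in 3xTg (number 178), a ratio of 2.87. It covered the start of Brca1, while its summit was nearer to the start of the neighboring gene Nbr1. Trp53, which encodes p53, had 6.43 and 11.0, Ing1, which encodes a reader protein linked to GADD45A in DNA demethylation, 6.31 and 9.58, and the stress factor gene Atf4 6.56 and 8.90. No peak was listed at Map3k4, the kinase that GADD45 proteins activate, or at Pcna and Cdk1, whose products they bind. Across the 17 genes of the list with a peak in both, the ratio of 3xTg to WT ran from 1.30 to 2.87 with a median of 1.60, beside 1.70 over all shared peaks. The gene ratios use 1 value per gene and list, also at genes with more than 1 peak, while the 1.70 comes from overlapping pairs. Only 6 of the 17 had a WT value of at least 8.50, and at the others a ratio over 1 was fixed by the ends of the lists. A 3xTg peak alone was found at 6 of the 78 genes, beside 6.42% of all genes. They included Igf1r, Akt2, Crebbp, Ywhag and Ppargc1a, named after their values had been seen. Of these Ppargc1a, a FOXO target and coactivator of mitochondrial genes, had the highest fold enrichment at 12.6, below that of Gadd45a. The peaks at Akt2, Ywhag and Ppargc1a lay within 5 kb of a start. That at Igf1r was 176467 bases from its start, with a summit nearer to the start of Pgpep1l, and that at Crebbp was 52372 bases away. The values at Igf1r (9.23), Akt2 (8.98) and Crebbp (8.94) were near the end of the 3xTg list at 8.50.

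**Figure D5:**
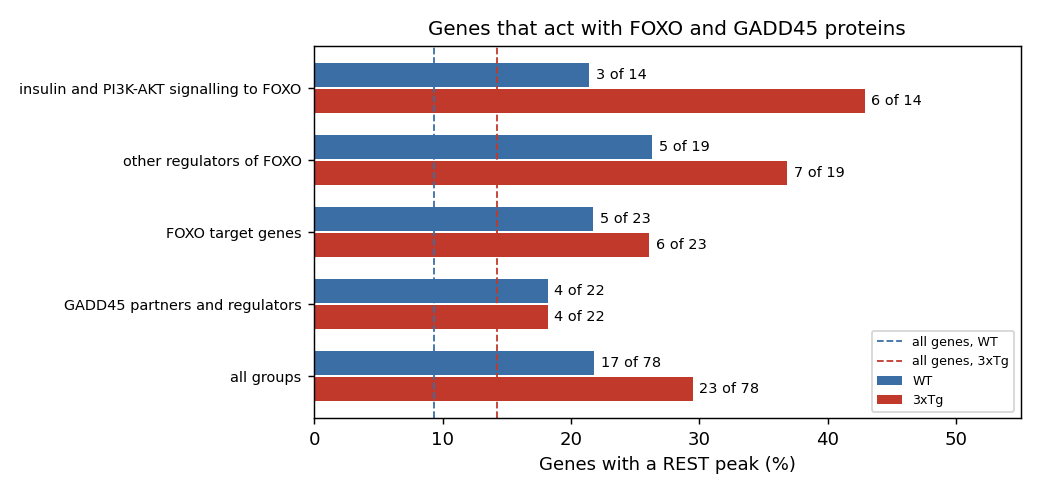
Percentage of genes with a REST peak in the body or within 5 kb of a start site, by role, in WT (blue) and 3xTg (red). Dashed lines mark the shares of all genes, 9.30% in WT and 14.2% in 3xTg, and bar labels give the number of genes with a peak of the number in the role.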

How the data were processed

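REST ChIP-seq of 4 WT and 4 3xTg samples of pooled cortex was analysed from 1 deposited peak list per genotype, which combines the 4 replicates. How they were combined is not given in the sources used here. Per the study's methods, the authors used STAR for alignment to mm10 and MACS for peak calling, kept fold enrichment over 5 and a q-value below 0.01 and removed blacklisted peaks. The submitters' processing notes name BWA for replicates 1 and 2 and the inputs, and STAR (2.7.0a), Picard, DiffBind and ChIPseeker for replicates 3 and 4. The deposited columns used were the fold enrichment (a ratio), the q-value as its −log10, and the summit position. The deposited score is the −log10 q-value times 10, rounded down. The deposited lists began at a fold enrichment of 6.003 (WT) and 8.50 (3xTg), above the stated limit of 5.

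Peaks on chromosome Y were left out. Genes were curated RefSeq transcripts of mm10 (GRCm38). Peaks were ranked by fold enrichment within a list and called shared if they overlapped by 1 base. Overlaps and the RE1 search were tested on simulated data. With no value per replicate, no test was run. Python 3.11.15, pandas 2.3.3 and pysam 0.24.0 were used. The named genes are the 6 genes, Foxo4, any gene with a start nearer to a peak of the 6 and, in each role, the 3 genes with the highest fold enrichment in either list, and genes named for having no peak, a 3xTg peak alone or a covered start were added after their values were seen. Some genes that the rule covers are counted but not reported here. The genes and lists were chosen with earlier results of these data known.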

Additional observations from a re-analysis of the deposited data

How the results depend on the processing

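No paired analysis was possible because each deposited list combines the 4 replicates of a genotype, and for the same reason no replicate could be left out. The number of family genes with a peak was 3 in WT and 4 in 3xTg. It did not change with a distance of 1 or 10 kb, with start sites or summits alone or with model transcripts. It also stayed the same with a q-value below 1e-05 and with chromosome Y, but these were no tests. The lowest listed −log10 q was 13.3 in WT and 29.0 in 3xTg, so this limit removed no peak. None of the family genes is on chromosome Y. Foxo3 was lost in WT (2 genes left) and in 3xTg (3 left) at a fold enrichment over 10, in 3xTg (3 left) when as many 3xTg as WT peaks were used, and in WT (2 left) at a common lower limit of 8.50, an alternative chosen after seeing the data that kept 950 WT peaks. Gadd45a kept its 3xTg peak under each of these, although the common limit removes no 3xTg peak, and gained no WT peak. The latter was no test, since stricter limits only remove peaks and the nearest WT peak lay 64953 bases away. Of the 78 genes acting with FOXO and GADD45, 17 had a WT peak, but 3 at a fold enrichment over 10 and 6 at the common limit, where 1.91% and 3.01% of all genes had one. In 3xTg the number was 17 in place of 23 at a fold enrichment over 10 (9.41% of all genes). With as many 3xTg as WT peaks (8.82%) it was also 17 and so equaled the 17 in WT. At the common limit it stayed 23, which was no test, since that limit is the lowest value of the 3xTg list. Requiring an overlap of 50% of both peaks left 1 of 4 WT and 1 of 4 3xTg family peaks shared, both at Foxo3. The 3xTg peaks of Gadd45b and Gadd45g were wider than their WT peaks (2562 against 1119 bases and 1385 against 496 bases). Over all peaks the median width was 611.5 bases in WT and 937 in 3xTg. The share of all peaks that passed this setting was not determined, so the fall cannot be read as particular to the family. With at most 1 mismatch the number of WT peaks with an RE1-like match went from 1 to 0, and with the whole peak searched the number of 3xTg peaks went from 0 to 1 (Gadd45b). Ranks by −log10 q stayed within 1.5 times of those by fold enrichment. The lists give no read depth, so its part in which peaks were listed was not tested.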
